A study of Mus musculus with 8 samples.

Results

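Sox9, Sox5 and Sox6, the Sox trio of cartilage, were examined together with 7 other transcription factors: the Sox9 relative Sox8, the SOX9 partners Zfp219 and Arid5b, the repressor Trps1, and Runx1, Foxa2 and Foxa3. Members were every probe set whose platform annotation names 1 of these 10 symbols alone, which gave 33 probe sets, out of 34945 probe sets for 18193 named genes. The arrays measured RNA of primary rib chondrocytes from FVB embryos at E18.5. Embryos of 4 litters were grouped by genotype, wild type (labelled control) or Hoxd4 transgenic (labelled transgenic), with 1 array for each genotype in each litter. The sources used here do not state which promoter drives the transgene, which cells express it, or how many embryos made up a group.

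SOX9 is the factor on which chondrocyte identity depends. It binds enhancers of cartilage matrix genes, such as the type II collagen gene Col2a1 and the aggrecan gene Acan. SOX5 and SOX6 lack an activation domain of their own and strengthen the action of SOX9 at shared enhancers. The remaining factors work with SOX9 or act at neighbouring steps of cartilage formation.

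SOX proteins recognise short words such as AACAAT, and the related word ACAATG is common at their sites. RefSeq promoter sequences of mouse assembly GRCm38.p6 were present for 8 of the 10 genes, with 17 start sites. No entry was given for Sox9 and Trps1. The 250 bases before each start were searched on both strands, and a stretch that holds both words counts for both. A match was found in 3 of the 17 windows, 1 of Sox5 and 2 of Sox6. Among all 32851 windows 16.2% had one, 9.42% for the first word and 10.7% for the second. Shown are the Sox5 window, the Sox6 window with most matches, and the window of Sox8, which has none and belongs to the gene that varied most between litters. Capitals mark the matches, and the sequences run 5′ to 3′ on the minus strand.
Sox5, chr6:143947107-143947356: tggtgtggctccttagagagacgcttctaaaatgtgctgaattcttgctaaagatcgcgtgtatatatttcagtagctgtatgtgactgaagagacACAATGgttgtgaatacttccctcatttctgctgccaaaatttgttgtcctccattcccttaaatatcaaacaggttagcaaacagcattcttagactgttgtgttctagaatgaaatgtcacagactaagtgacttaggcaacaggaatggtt
Sox6, chr7:115824711-115824960: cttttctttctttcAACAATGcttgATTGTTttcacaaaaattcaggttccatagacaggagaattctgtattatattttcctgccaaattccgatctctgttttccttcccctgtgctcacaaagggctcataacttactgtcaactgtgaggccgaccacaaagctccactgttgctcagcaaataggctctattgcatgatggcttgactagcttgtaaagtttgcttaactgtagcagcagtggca
Sox8, chr17:25570687-25570936: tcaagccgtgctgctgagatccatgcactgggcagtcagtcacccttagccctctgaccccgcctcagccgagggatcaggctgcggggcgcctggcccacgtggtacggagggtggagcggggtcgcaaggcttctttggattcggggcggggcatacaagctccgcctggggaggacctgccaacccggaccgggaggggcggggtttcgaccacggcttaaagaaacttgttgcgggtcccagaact
In the Sox6 window the matches begin 236, 235 and 225 bases before the start, the first pair overlapping, and in the Sox5 window 154 bases before it. They describe letters and not the binding of a protein.

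Values are MAS5 signals on a linear scale. In every array the mean without the top and bottom 2% of probe sets was 500, medians lay between 100.5 and 115, and rank correlations between arrays were 0.932 to 0.942. Probe sets with a mean signal above 106, the median of all, were tested: 22518 in all and 28 of the 33, with at least 1 for each gene. All 12 chondrocyte markers were among them, with summed signals of 323502 to 360852 in control and 345797 to 364393 in transgenic arrays. Probe sets differ in their probes, so levels are not ranked between genes. The transgene had no probe set of its own; the brighter of a pair annotated to both Hoxd4 and Hoxd3 gave 27.3, 42.6, 4.1 and 256 in control arrays of litters 1 to 4 and 94.1, 415, 172 and 13 in transgenic ones. In litter 4 this probe set ran against the labels. It does not tell Hoxd4 from Hoxd3, and the cause was not tested. Directions below refer to arrays as labelled. Values without litter 4 are given for the tested probe sets of the 10 genes and for the medians of the related lists. The Y-linked genes Eif2s3y, Uty and Kdm5d stood 0.92, 0.86 and 0.75 higher on the log2 scale in arrays labelled transgenic, in 4 of 4 litters, and Xist had a difference of -3.68. Xist read 5778, 9945, 13760 and 8098 in control arrays of litters 1 to 4. In transgenic arrays it read 79.8, 3266, 47.2 and 8209, so it was lower in litters 1 to 3 and not in litter 4. For Eif2s3y, Uty, Kdm5d and Xist the unadjusted p in limma was 0.00024, 0.00041, 0.0046 and 0.0064. The adjusted p was 0.9997 for each. These signals differed with the label, so sex was not separated from the label in the values below. The part of sex in those values was not tested.

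No member passed the test between the genotype labels. In limma 0 of 28 probe sets had an adjusted p under 0.05 (0% of all tested), and 1 had an unadjusted p under 0.05 (3.57%, against 3.29% of all tested). With the litter as a block these counts were 0 (against 0%) and 2 (7.14%, against 5.54%). The groups overlapped for each of the 28, whereas 2.27% of all tested probe sets had groups that did not. Arrays labelled transgenic were higher for 11 and lower for 17, and 51.2% of all tested were higher. The median difference was -0.041 (log2), against 0.0029 for all tested. The 95% confidence interval lay within a 1.5-fold change for 24 of the 28 (85.7%, against 85.5%) and within a 2-fold change for all 28 (against 98.7%). The 4 wider than 1.5-fold were 3 of Arid5b and 1 of Runx1. Differences are of log2(signal + 32), which makes those of dim probe sets smaller. In such bulk samples fewer cells of a type and less RNA per cell cannot be told apart.

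**Figure D1:**
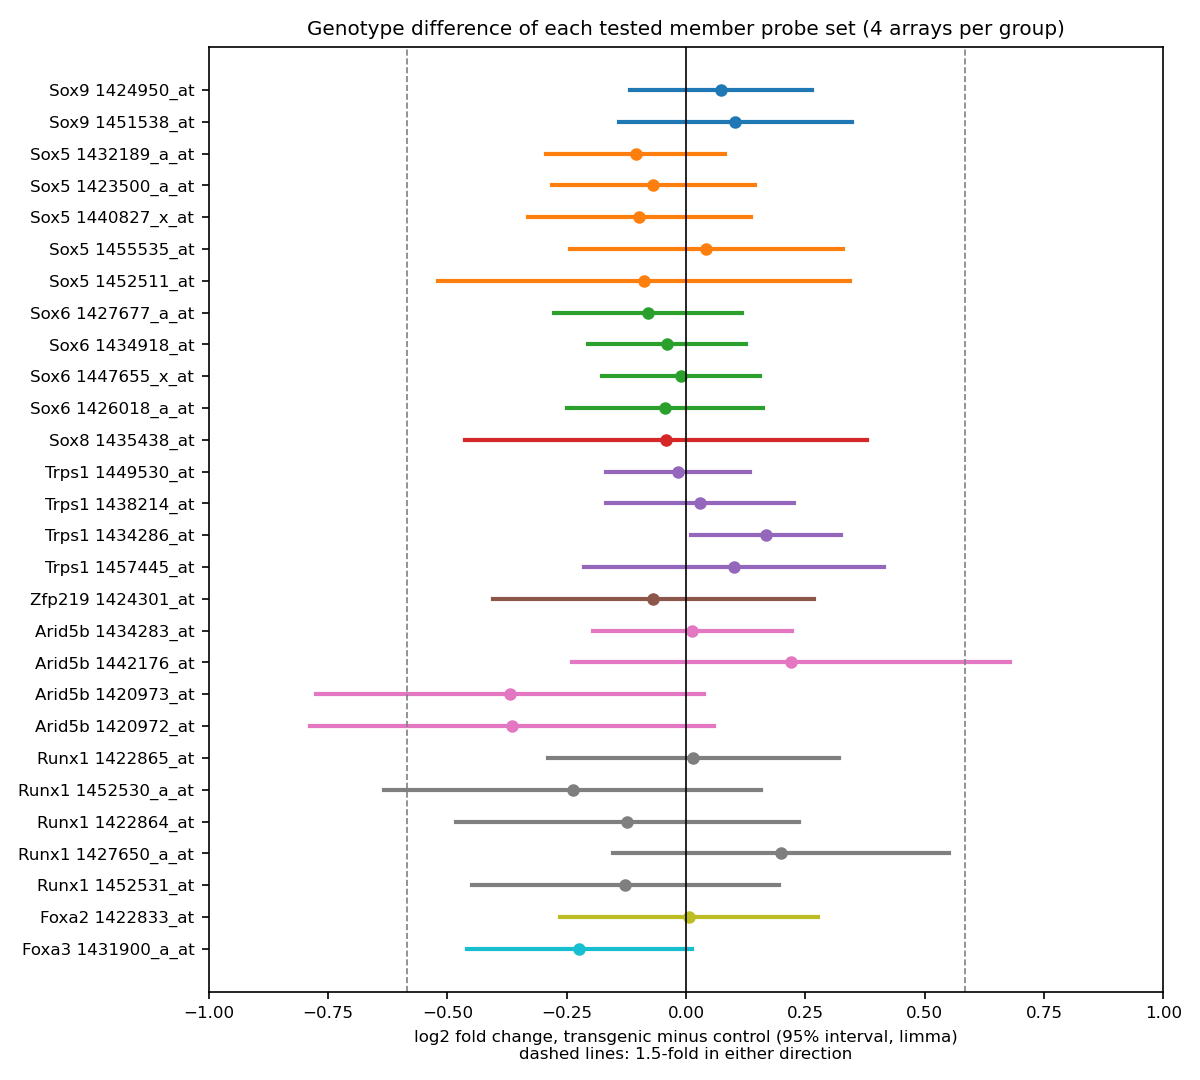
Log2 fold change, transgenic minus control, of the 28 tested probe sets (points) with 95% confidence intervals from limma (lines), 4 arrays per group; dashed lines mark 1.5-fold. All intervals but that of a Trps1 probe set at 0.17 include 0.

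Sox9 was measured by 2 tested probe sets, both slightly higher in arrays labelled transgenic. For 1424950_at the control arrays read 4844, 4093, 4454 and 3889 in litters 1 to 4, and the transgenic ones 4889, 5004, 4329 and 3979. The groups overlapped, and the transgenic array of litter 2 was the brightest. Means were 4320.1 ± 420.2 (SD, n = 4) and 4550.3 ± 482 (SD, n = 4), a log2 difference of 0.073 (95% CI, -0.12 to 0.26). As a ratio the interval runs from 0.92 to 1.20. The other, 1451538_at, comes from the same cDNA record and read 3381, 2925, 3455 and 2604 in control and 3447, 4045, 2928 and 2907 in transgenic arrays, a difference of 0.10 (95% CI, -0.14 to 0.35). Litter 2 gave the largest difference for both, 0.29 and 0.46. Without litter 2 the values were 0.0017 and -0.017, and without litter 4 they were 0.087 and 0.085.

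A dim Sox9 probe set, 1433889_at, was not tested with the rest. Its signals were 22.8, 45, 17.9 and 30.2 in control and 42.7, 116, 76.6 and 36.1 in transgenic arrays, higher in 4 of 4 litters with overlapping groups. Fitted over all 45037 probe sets, the difference was 0.66 (95% CI, 0.040 to 1.28), with an adjusted p of 0.9999 in limma. An exact two-sided permutation test gave a p of 0.086, the smallest possible being 0.029. Its label assignments were not kept within litters. Most of these signals lie near the added constant of 32.

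Sox5 and Sox6 encode SoxD proteins that act together. Of 7 Sox5 probe sets 5 were tested, 4 lower and 1 higher in arrays labelled transgenic. The brightest, 1432189_a_at, gave 2315, 1865, 2139 and 1826 in control arrays and 1973, 1959, 1855 and 1745 in transgenic ones. Control arrays of litters 1 and 3 stood above the other 6. The log2 difference was -0.11 (95% CI, -0.29 to 0.082), and -0.12 without litter 4. The other 4 tested lay between -0.098 and 0.042, and between -0.050 and 0.13 without litter 4. The widest interval was that of 1452511_at, at -0.089 (95% CI, -0.52 to 0.34). Its arrays gave 329, 263, 277 and 325 under control and 424, 326, 233 and 180.1 under transgenic labels, higher in litters 1 and 2 and lower in litters 3 and 4. Without litter 4 it turned to 0.13. Both untested Sox5 probe sets stayed between 3.7 and 89.9 on all arrays.

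All 4 Sox6 probe sets were tested. In the brightest, 1427677_a_at, control arrays gave 2036, 2166, 2339 and 2234 and transgenic arrays 2427, 1897, 1840.4 and 2169.5. The transgenic values reached beyond the control ones on both sides, highest in litter 1 and lowest in litter 3. All 4 were lower in arrays labelled transgenic, by values from -0.080 to -0.011; that of 1447655_x_at turned to 0.015 with arrays shifted to a common median. Their intervals, as ratios, together ran from 0.83 to 1.12. Without litter 4 the values were -0.093 to -0.026.

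Sox8, a SoxE gene like Sox9, had 1 probe set, 1435438_at. Control arrays gave 602, 386, 489 and 305, and transgenic arrays 594, 344, 413 and 362. Both arrays of litter 1 were the highest, while the arrays of litters 2 and 4 overlapped. Between the labels the difference was -0.042 (95% CI, -0.46 to 0.38), and without litter 4 it was -0.13.

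**Figure D2:**
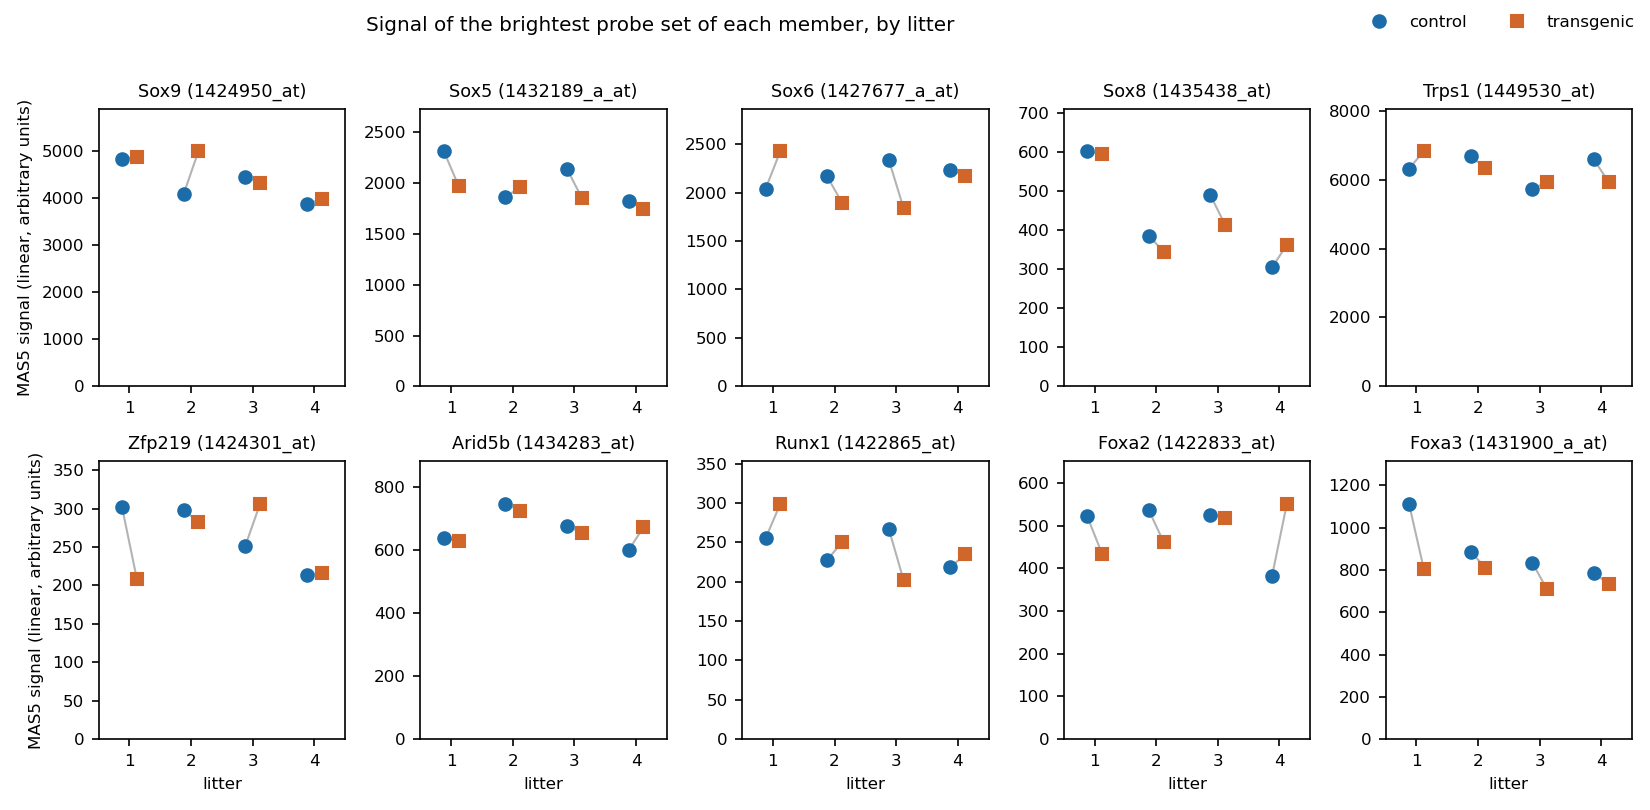
MAS5 signal (linear scale from 0) of the brightest tested probe set of each of the 10 genes by litter, with control arrays as circles and transgenic arrays as squares. For Sox8 both arrays of litter 1, at 602 and 594, lie above the other 6, at 305 to 489.

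Zfp219 encodes a zinc finger partner of SOX9. Its probe set, 1424301_at, read 302, 299, 251 and 214 in control arrays and 209, 282, 306 and 216 in transgenic ones. The groups covered nearly the same range, lower under the transgenic label in litter 1 and higher in litter 3. The difference was -0.069 (95% CI, -0.41 to 0.27), and -0.097 without litter 4.

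Arid5b encodes a DNA-binding protein that brings the histone demethylase PHF2 to SOX9 targets, and its probe sets did not run alike. The brightest, 1434283_at, read 638, 746, 675 and 599 in control and 627, 725, 655 and 672 in transgenic arrays, with a difference of 0.013 (95% CI, -0.20 to 0.22). It turned to -0.035 without litter 4, the only litter in which the transgenic array was higher. The dimmer 1420973_at and 1420972_at, from 1 record, were at -0.37 (95% CI, -0.78 to 0.037) and -0.36 (95% CI, -0.79 to 0.059). In the former, control arrays read 166, 147, 125 and 146 and transgenic arrays 137, 106, 112 and 73.6, lower in 4 of 4 litters with overlapping groups; the latter was lower in 3 of 4. A further dim probe set, 1442176_at, was at 0.22 (95% CI, -0.24 to 0.68), so the dim probe sets pointed both ways. Without litter 4 these 3 stood at -0.24, -0.32 and 0.33. The untested 1 stayed at or below 72.1 on every array.

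Trps1 encodes a GATA-type zinc finger repressor that restrains chondrocyte maturation. Among the 28 tested probe sets, 1 of its 4 had the only unadjusted p under 0.05 in the limma fit without the litter block. This was 1434286_at, which read 2665, 2557, 2486 and 2292 in control and 2912, 2899, 2564 and 2873 in transgenic arrays. It was higher in 4 of 4 litters, as were 6.83% of all tested probe sets, while the transgenic array of litter 3 lay within the control range. The difference was 0.17 (95% CI, 0.0099 to 0.33), and 0.12 without litter 4. The brightest, 1449530_at, gave 6318, 6693, 5729 and 6587 under control and 6829, 6328, 5934 and 5936 under transgenic labels, a difference of -0.017 (95% CI, -0.17 to 0.13), which turned to 0.0095 with arrays shifted to a common median and to 0.027 without litter 4. The other values were 0.029 for 1438214_at and 0.10 for 1457445_at, and 0.082 and 0.13 without litter 4.

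Runx1, a runt-domain factor of cartilage precursors and of blood stem cells, was dim in its 6 probe sets. The brightest, 1422865_at, gave 255, 228, 267 and 218 in control and 299, 249.7, 202 and 234 in transgenic arrays, a difference of 0.015 (95% CI, -0.29 to 0.32). Both groups covered a similar range, and the value turned to -0.0099 without litter 4. The other 4 tested lay between -0.24 and 0.20, 3 lower and 1 higher, and between -0.37 and 0.24 without litter 4. The lowest, 1452530_a_at, rested on litter 1 and stood at -0.015 without it. Of 15 markers of leukocytes and blood precursors 6 were tested, with summed signals of 2837 to 6561 in control and 3195 to 6756 in transgenic arrays. Ptprc and Spi1 were among those too dim, at mean signals of 93.4 and 89.9. The 6 tested ran from Laptm5 at 114 to S100a8 at 1744, with S100a9 at 1451 and Csf1r at 450. The part of these cells in the Runx1 signal was not tested.

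Foxa2 and Foxa3 encode forkhead factors active in chondrocytes on the way to hypertrophy. Foxa2, through 1422833_at, read 521, 536, 525 and 382 in control and 434, 461, 519 and 551 in transgenic arrays. In litter 4 the control array was the lowest of all 8 and the transgenic array the highest. The difference was 0.0066 (95% CI, -0.26 to 0.28), and -0.16 without litter 4. Foxa2 is also a gene of foregut and liver, of whose 11 markers 2 were tested, Epcam and Sftpc, at mean signals of 379 and 112. Those too dim included Alb, Afp and Ttr, at 78.7, 24.3 and 14.1. The 2 tested summed to 921 in the transgenic array of litter 3 and to 341 to 508 in the others. The part of such cells in the Foxa2 signal was not tested.

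Foxa3, through 1431900_a_at, had the largest difference among the brightest probe sets of the 10 genes. Control arrays of this gene gave 1113, 886, 835 and 786, and transgenic arrays 805, 811, 708 and 735. The transgenic array was lower in 4 of 4 litters, as for 6.61% of all tested probe sets, and the control array of litter 1 stood above the other 7. Means were 905 ± 145 (SD, n = 4) and 765 ± 51.4 (SD, n = 4), a log2 difference of -0.22 (95% CI, -0.46 to 0.012). With the litter as a block the interval was -0.41 to -0.033, with an adjusted p of 0.85 in limma. Without litter 4 the value was -0.27, and without litter 1 it was -0.15.

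Litters were compared by limma's moderated F test with the genotype label as a covariate. Of the 28 probe sets 0 had an adjusted p under 0.05 (0.484% of all tested did), and 6 had an unadjusted p under 0.05 (21.4%, against 14.6%): 2 of Sox5, 2 of Trps1, and 1 each of Sox9 and Sox8. Sox8 varied most, with litter means of 9.30, 8.63, 8.91 and 8.51 (log2), a span of 0.79 or 1.73-fold (adjusted p = 0.099 in limma). Without litter 1 its adjusted p was 0.60. Both arrays of litter 1 lay above the other 6 for 4 of the 28, from Sox5, Sox8 and Runx1 (5.8% of all tested). Both arrays of litter 4 lay below the other 6 for 5, all of Sox9 and Sox5 (4.73% of all tested). The median span was 0.25 for the 28 and 0.28 for all tested.

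Several members shared an order of the litters. By the brightest probe set, the mean was highest in litter 1 for 7 of the 10 genes (25.8% of 11013 tested genes) and lowest in litter 4 for 7 of 10 (24%). Sox9, Sox5, Sox8, Runx1 and Foxa3 met both, 5 of 10 against 8.44%. Some ranks were close, as for Sox6 (11.139 in litter 1 and 11.125 in litter 4) and Foxa3 (9.646 in litter 3 and 9.629 in litter 4). By these probe sets 2 of the 10 genes had an unadjusted p under 0.05 between litters in limma (20%, against 15.1% of all tested genes). Their median span was 0.255, against 0.252 for all tested genes. Litter means ran 12.26, 12.15, 12.11 and 11.95 (log2) for Sox9 and 11.08, 10.92, 10.98 and 10.83 for Sox5. Sox6 was more even, with spans of 0.11 to 0.19. No other tested Runx1 probe set was both highest in litter 1 and lowest in litter 4: 1452530_a_at was highest in litter 4 and 1452531_at lowest in litter 1. Of the other tested Sox9 and Sox5 probe sets, 1455535_at and 1452511_at of Sox5 met both. Sox9 1451538_at and Sox5 1423500_a_at and 1440827_x_at met only 1. Trps1 probe sets disagreed: 1457445_at was lowest in litter 1, where the other 3 were highest. All genes share these 4 litters of 2 arrays, and the order was noted after the values were seen.

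Mean signals of several lists of markers of other cells were lowest in litter 1. The mean over all 11013 tested genes was also lowest there (9.66, against 9.68 to 9.70 in the others). So were the array medians, at 103.2 in control and 100.5 in transgenic. This litter had the lowest mean log2 signal of the endothelial list (12 of 14 tested; 7.86, against 8.06 to 8.23 in the others), the erythroid list (3 of 11; 10.26, against 10.57 to 11.24 in the others) and the skeletal muscle list (12 of 12; 9.61, against 9.93 to 9.99 in the others). It was also lowest for fibroblasts and perichondrium (10 of 10; 13.10, against 13.22 to 13.33 in the others), leukocytes (6 of 15; 8.56, against 8.74 to 9.06 in the others) and osteoblasts (6 of 9; 9.03, against 9.09 to 9.31 in the others). The lists of neural crest glia (5 of 8; 9.07, against 8.92 to 9.14 in the others), foregut and liver (2 of 11; 7.84, against 7.72 to 8.20 in the others) and epidermis (2 of 6; 8.66, against 8.47 to 8.75 in the others) were not lowest there. Chondrocyte markers were highest there (12 of 12; 14.69, against 14.61 to 14.63 in the others). Of the genes of all these lists 3 passed the litter test, as did 70 of 11013 tested genes. Hbb-b2, a beta globin, Alas2, an enzyme of heme synthesis, and Col14a1, a collagen of fibrous tissue, did so in limma at adjusted p of 0.0025, 0.0032 and 0.012. The part of these cells in the order of the Sox genes was not tested.

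**Figure D3:**
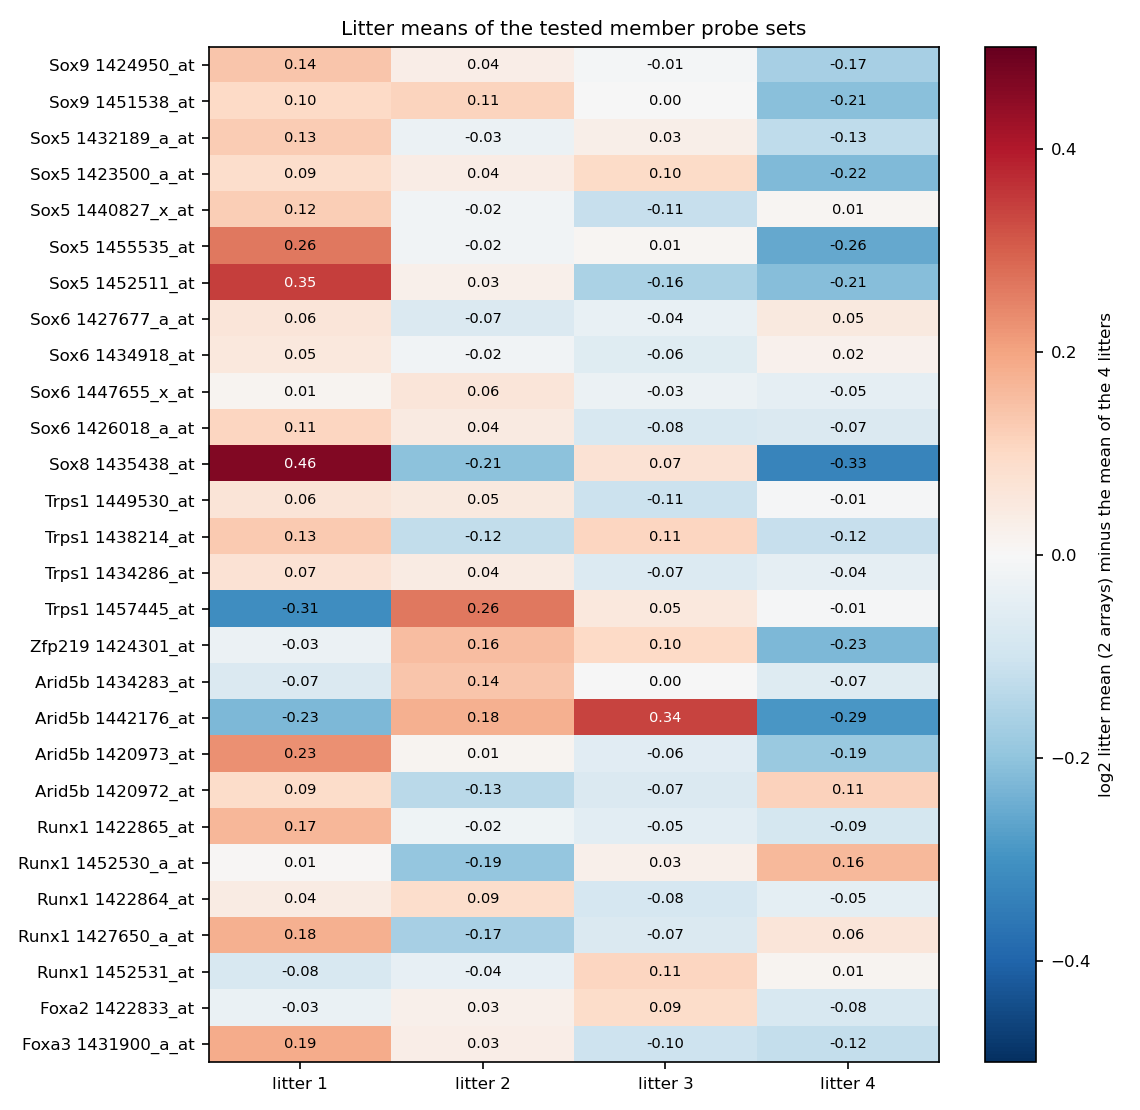
Litter means of the 28 tested probe sets (log2, mean of 2 arrays), each minus the mean of the 4 litters. Sox8 spans 0.79, the most of any row, and the 4 Sox6 rows span 0.11 to 0.19.

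Genes that SOX9 drives in cartilage gave 19 higher and 10 lower among 29 tested of 30, while 5469 of 11013 tested genes were higher. The median difference was 0.022, against -0.00082 for all tested genes. Without litter 4 the median turned to -0.012. In limma 0 passed the adjusted threshold and 0 had an unadjusted p under 0.05 (2.95% of all tested genes). The smallest p values were those of Chadl, a cartilage matrix protein, at 0.13 (95% CI, -0.080 to 0.33), and of Col11a2 and Col11a1, chains of type XI collagen, at 0.071 and 0.060. Between litters they were those of Susd5 and Cilp2, both lowest in litter 4 (adjusted p = 0.07 and 0.076 in limma). Susd5 was highest in litter 1. Cilp2 was highest in litter 2, with litter means of 8.75, 9.57, 8.98 and 8.74 (log2).

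Among the other Sox genes 8 of 16 were tested, 4 higher and 4 lower, with a median of -0.0069 (-0.0085 without litter 4) and 0 past the adjusted threshold in limma. Sox13, a SoxD gene, was at -0.50 (95% CI, -0.96 to -0.036), lower in 3 of 4 litters, and alone of the 8 had an unadjusted p under 0.05. Sox17, an endothelial and endodermal factor, stood at -0.25 and Sox4, a SoxC gene, at 0.13. Endothelial markers were lower in 9 of 12, against 5544 of 11013 tested genes. Their sums were 2860.3 to 3815 in control and 2479 to 3478 in transgenic arrays, and their part in these values was not tested. Sox4 was highest in litter 4 and lowest in litter 1, the reverse of Sox9, with a span of 0.44.

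SOX9 coactivators and modifiers gave 11 higher and 9 lower of 20, with a median of 0.0080 that turned to -0.0037 without litter 4. Their smallest p values were those of Phf2, the demethylase that works with ARID5B, at 0.17 (95% CI, -0.060 to 0.40), the hypoxia factor Hif1a at 0.089 and the coactivator Ncoa1 at 0.13. Relatives and partners of Runx1, Trps1 and the Foxa genes gave 6 higher and 8 lower of 14 (median -0.018, and -0.025 without litter 4), with the corepressor Tle3 at -0.24 (95% CI, -0.49 to 0.016) and the forkhead genes Foxo1 and Foxc2 at 0.12 and -0.14. Other skeletal transcription factors gave 13 higher and 13 lower of 26 (median -0.0051, which turned to 0.0011 without litter 4), with the mesenchymal factors Twist1, Snai1 and Snai2 at -0.23, 0.26 and 0.11. In these 3 lists 0 genes passed the adjusted threshold and 0 had an unadjusted p under 0.05 in limma. With the litter as a block 1 of these 20, 14 and 26 genes had an unadjusted p under 0.05, against 5.54% of all tested probe sets. This was Phf2, whose interval was then 0.0035 to 0.34 (adjusted p = 0.89 in limma). It was higher in 4 of 4 litters, as were 6.83% of all tested probe sets.

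**Figure D4:**
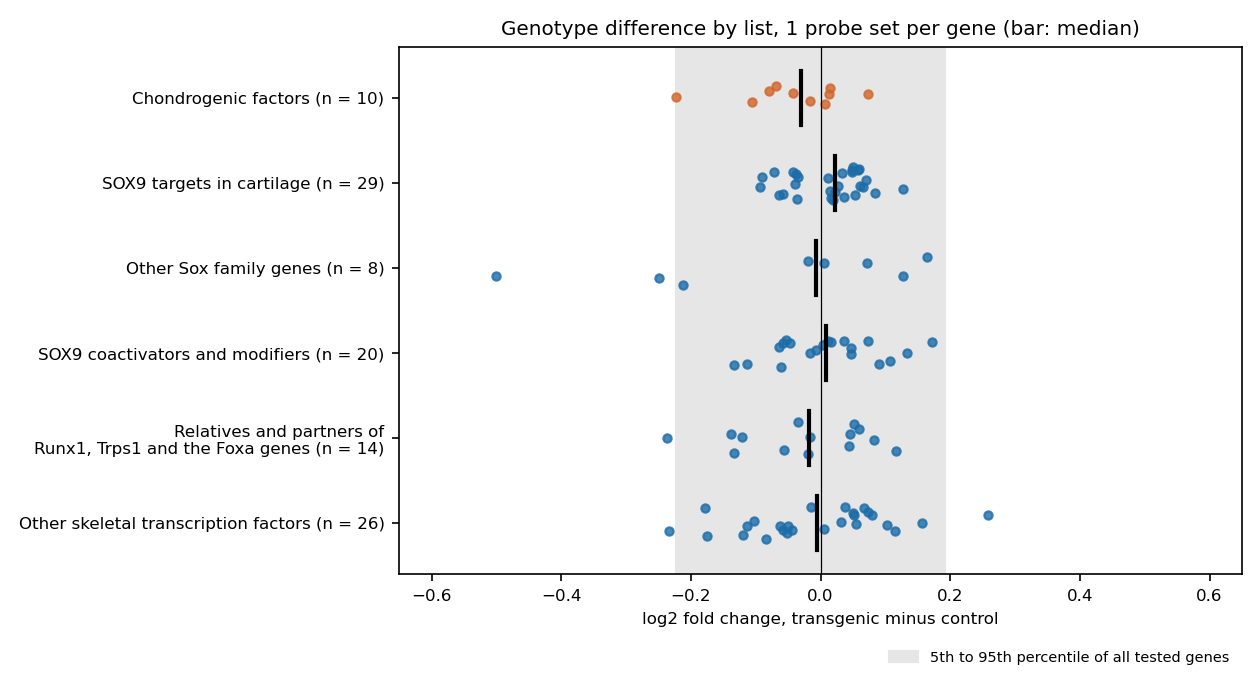
Log2 fold change, transgenic minus control, of each tested gene among the 10 factors and 5 related lists (points; bars are medians). The grey band holds the 5th to 95th percentile of all tested genes, -0.22 to 0.19, and Foxa3 lies at its lower edge.

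Over the 8 arrays the log2 signals most like Sox9 were those of Ddrgk1, A2m and Phax, with Pearson correlations of 0.96, 0.95 and 0.95. For Sox5 they were 1700030K09Rik, Desi2 and Tmem268 (0.99, 0.97 and 0.95), and for Sox6 they were Nfyb, Tap1 and Ddx1 (0.95, 0.93 and 0.93). These are the highest among 11013 genes on arrays that share litters, given as a description.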

How the data were processed

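Each array was a one-colour biotin-labelled Affymetrix array, grouped by sample title; numbers shared by both genotypes mark the litter, per the labels. The deposited values are intensities on a linear scale, made by the authors with MAS5 per the submitters' processing notes; version and detection calls are not given there. The number of arrays limits the precision.

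Of 45101 probe sets 64 controls were left out. Signals became log2(signal + 32), 32 being the median 25th percentile, with no further normalization. Tests were run in R 4.3.3 with limma 3.58.1 and statmod 1.5.0 (lmFit, then eBayes with an intensity trend). The p-values were adjusted by Benjamini-Hochberg over the 22518. The fits were also run on simulated data with planted differences larger than those of the 10 genes. Litters differed there only where a difference was planted. Permutation tests ran over 70 label assignments, which ignored the litters. Symbols came from the platform annotation and RefSeq gene identifiers (0 changed; 932 probe sets had several symbols and 9160 none). Genes outside the 10 were named by smallest p in each list (up to 3 between genotypes, up to 2 between litters), or by likeness to Sox9, Sox5 and Sox6. Members and lists were chosen with earlier results of these data known. Same-litter arrays deviated together by correlations of 0.28, 0.17, 0.041 and 0.14, against -0.052 on average between litters. Whether samples are independent beyond the litter is not stated, so p-values measure the spread between these arrays. Figures used matplotlib 3.10.9 in Python 3.11.15.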

Additional observations from a re-analysis of the deposited data

Results flagged for a closer look

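In 3 of 66 groups of 4 arrays examined, 1 array stood apart from the other 3; chance gives about 1 in 20. Foxa2 was low in the control array of litter 4, at 382 against 521 to 536. Trps1 1434286_at was low in the transgenic array of litter 3, at 2564 against 2873 to 2912. Trps1 1457445_at was high in the transgenic array of litter 2, at 2539 against 1815 to 1938.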

How the results depend on the processing

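Under every alternative run, 0 of the 28 probe sets passed an adjusted p of 0.05 between genotype labels or between litters, and 0 genes of the related lists did between labels. With the litter as a fixed or random replicate block, probe sets with an unadjusted p under 0.05 between labels were 2 and 3 in place of 1, with no trend 2, and with arrays at a common median 0; leaving out arrays or litters gave 0 to 2. Between litters the 6 became 10 with a common median, 3 without the trend and 1 of 10 genes with probe sets averaged; leaving out a litter gave 2 to 7. Over all probe sets the 109 past the adjusted threshold between litters became 234 with a common median, 30 without a filter, 0 without the trend, 48 per gene, 10 without litter 1, 70 without litter 4 and 286 without litter 3. Direction between labels was kept throughout by 13 of the 28. A common median turned Sox6 1447655_x_at to 0.015 and Trps1 1449530_at to 0.0095. Leaving out arrays or litters turned 15, whose log2 differences ranged as follows. The Sox genes were Sox9 1451538_at (-0.017 to 0.22), Sox5 1423500_a_at (-0.13 to 0.014), Sox5 1455535_at (-0.041 to 0.16), Sox5 1452511_at (-0.28 to 0.13), Sox6 1427677_a_at (-0.19 to 0.0065), Sox6 1447655_x_at (-0.065 to 0.045) and Sox8 1435438_at (-0.20 to 0.11). The others were Trps1 1449530_at (-0.064 to 0.027), Trps1 1438214_at (-0.037 to 0.094), Trps1 1457445_at (-0.057 to 0.22), Zfp219 1424301_at (-0.18 to 0.065), Arid5b 1434283_at (-0.035 to 0.068), Runx1 1422865_at (-0.072 to 0.14), Runx1 1422864_at (-0.28 to 0.0072) and Foxa2 1422833_at (-0.16 to 0.091). The cause was not tested. The filter on mean log2 values and most alternatives for the lists were chosen after seeing the data.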
